A study of Homo sapiens with 12 samples.

Results

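The transcription factors described here are the 9 genes SNAI1, SNAI2, ZEB1, ZEB2, TWIST1, TWIST2, HMGA2, OVOL1 and OVOL2, which act in epithelial-mesenchymal transition (EMT). They were found by matching their symbols to the Ensembl gene identifiers of the deposited count table. All 9 were among its 60676 gene rows, and 7 passed the filter on low counts that left 16192 genes for testing. OVOL1 and OVOL2 did not pass it. The cells were A549, an established line of human lung adenocarcinoma, and RNA was sequenced from 12 libraries in 4 groups of 3. The first group, LETS1 TGF-β, carried the lentiviral vector pCDH-EF1a-PURO with the long non-coding RNA LETS1 and received TGF-β at 5 ng/mL for 4 h. The second, LETS1 buffer, carried the same construct and received the buffer of the ligand for 4 h. The other two, Co.vec TGF-β and Co.vec buffer, carried the empty vector and received TGF-β or buffer in the same way. All 4 groups were therefore infected with lentivirus and exposed to puromycin, which the labels give as 1 ng/mL, starting 2 days after the overnight transduction and followed by 3 more days of culture before the ligand. By its name the vector carries the constitutive EF1a promoter. How far puromycin selected the infected cells was not checked. The LETS1 transcript of the construct could not be checked, because 0 gene rows carried that symbol.

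In EMT, epithelial cells lose their junctions and gain mesenchymal traits. TGF-β binds a receptor kinase pair that phosphorylates SMAD2 and SMAD3, and these enter the nucleus with SMAD4 and act on genes that include SNAI1. SNAI1 and SNAI2 are zinc-finger repressors, and ZEB1 and ZEB2 are zinc-finger homeobox repressors. Both pairs bind E-boxes in epithelial genes such as CDH1, which encodes E-cadherin. TWIST1 and TWIST2 are basic helix-loop-helix factors that pair with E proteins. HMGA2 is an AT-hook protein of chromatin that works with SMADs at the SNAI1 promoter. OVOL1 and OVOL2 are zinc-finger repressors that hold the epithelial state and act against ZEB1. The microRNAs of the miR-200 family repress ZEB1 and ZEB2, which repress them in turn, and let-7 microRNAs repress HMGA2.

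The mature microRNAs of these known circuits are shown because their seed matches lie in the 3′ UTRs of ZEB1, ZEB2 and HMGA2. MicroRNAs were not measured in these libraries. Sequences are from RefSeq (GRCh38.p14) and the capitals mark the seed, bases 2 to 8. The first 3 share 1 seed and the next 2 share another.
hsa-miR-200b-3p: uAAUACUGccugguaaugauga
hsa-miR-200c-3p: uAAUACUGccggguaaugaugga
hsa-miR-429: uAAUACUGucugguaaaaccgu
hsa-miR-200a-3p: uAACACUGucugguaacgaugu
hsa-miR-141-3p: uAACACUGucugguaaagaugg
hsa-let-7a-5p: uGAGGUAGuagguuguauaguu

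Seed matches were searched on the transcript strand in the 3′ UTR of 1 GENCODE release 29 transcript per gene. The match CAGTATT of miR-200b, miR-200c and miR-429 occurred 5 times in ZEB1 and 5 times in ZEB2, 1 time in SNAI2, and in none of the other 6 factors. Of 18862 3′ UTRs, 14.8% held it, and among those within 25% of the length the share was 19.2% for ZEB1 and 45.7% for ZEB2. The match CAGTGTT of miR-200a and miR-141 occurred 3 times in ZEB1 and 4 times in ZEB2 and 0 times in the other 7 factors, against 16.7% of all 3′ UTRs with it, and 22.5% and 52.0% of those near the length of ZEB1 and ZEB2. The let-7 match CTACCTC occurred 4 times in HMGA2 and in no other factor, against 8.61% of all 3′ UTRs and 14.5% of those near its length. A match is a string of letters and not a measured site. The first 3 follow for each, as 23 bases in GRCh38 with the match in capitals, from GENCODE release 29 transcripts.
ZEB1, chr10:31527625-31527647, plus strand: tatcttatCAGTATTatcactct
ZEB1, chr10:31527719-31527741, plus strand: atccgcttCAGTATTttattatg
ZEB1, chr10:31528148-31528170, plus strand: ccatttctCAGTATTttcaaggc
ZEB2, chr2:144389045-144389067, minus strand: ccatacatCAGTATTtttattat
ZEB2, chr2:144388982-144389004, minus strand: caatgcatCAGTATTatgattcc
ZEB2, chr2:144388624-144388646, minus strand: acccatgtCAGTATTagaagaat
HMGA2, chr12:65963305-65963327, plus strand: ttcgatttCTACCTCagcagcag
HMGA2, chr12:65964540-65964562, plus strand: actcaataCTACCTCtgaatgtt
HMGA2, chr12:65964952-65964974, plus strand: gcaaagacCTACCTCcagacttc

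**Figure D1:**
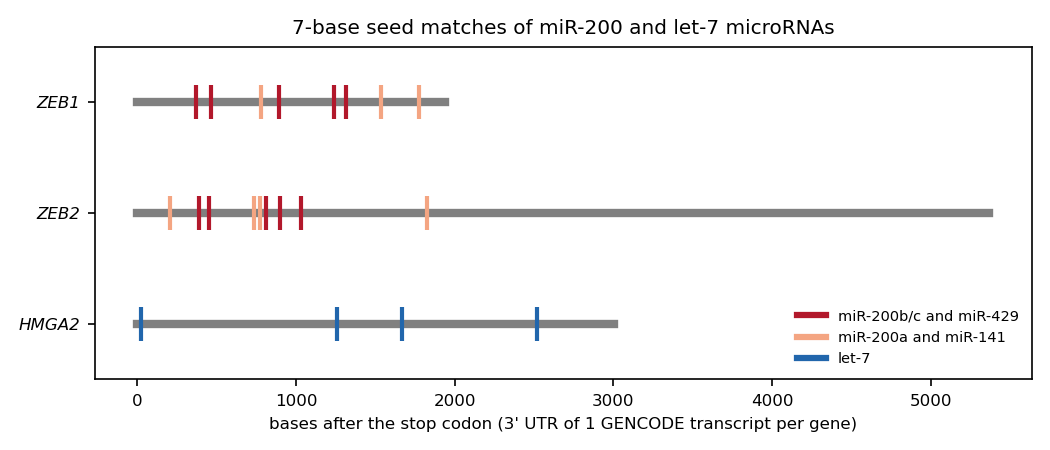
Position of each 7-base seed match along the 3′ UTR of 1 GENCODE transcript of ZEB1, ZEB2 and HMGA2, in bases after the stop codon; grey lines span the 3′ UTRs of 1938, 5370 and 3003 bases. Dark red marks the seed of miR-200b, miR-200c and miR-429, orange that of miR-200a and miR-141, and blue that of let-7, which matched HMGA2 alone among the 3.

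The libraries held 19705135 to 20351043 fragments counted in genes. The libraries were even in depth, and levels are given as counts per 1e6 fragments in genes (CPM) after scaling library sizes by TMM. Most epithelial and A549 markers were abundant: KRT8, a keratin, lay between 4277 and 6672 CPM and ALDH1A1, an aldehyde dehydrogenase, between 8868 and 10064 CPM over the 12 libraries. The epithelial adhesion gene EPCAM was lower, at 6.51 to 8.71 CPM, and the alveolar protease gene NAPSA had 10 to 26 counts. Markers of alveolar lineage were near 0, with 0 to 9 counts per library for SFTPB, 0 to 6 for SFTPC and 0 to 2 for NKX2-1. The summed level of the 14 markers ran from 27398 to 27745 CPM in LETS1 TGF-β, 25828 to 26442 in LETS1 buffer, 30756 to 32624 in Co.vec TGF-β and 30489 to 32057 in Co.vec buffer libraries. Between LETS1 and Co.vec, 11 of the 14 were tested, and 6 were called lower and 0 higher in each condition. Of all tested genes 6.5% were lower with TGF-β and 6.56% in buffer, and 7.58% and 8.57% were higher. ALDH3A1 was lower by log2 -0.41 with TGF-β and -0.52 in buffer, KRT18 by -0.41 and -0.55, and KRT8 by -0.26 and -0.37. The 5 not called were CDH1, EPCAM, NAPSA, ALDH1A1 and NQO1. Of 22 markers of other cell types, 8 passed the filter, and the sum was 156.9 to 173.2 CPM in LETS1 TGF-β, 36.6 to 41.8 in LETS1 buffer, 154.1 to 162.4 in Co.vec TGF-β and 40.3 to 45.3 in Co.vec buffer libraries. COL1A1, itself induced by TGF-β, made up most of that sum with TGF-β, at a mean of 141.9 CPM in LETS1 TGF-β and 125.6 CPM in Co.vec TGF-β libraries. RBFOX3, a neuronal marker, was lower with LETS1 (log2 -0.87 with TGF-β and -1.05 in buffer), at 14.5 CPM in LETS1 TGF-β, 10.8 in LETS1 buffer, 26.4 in Co.vec TGF-β and 22.4 CPM in Co.vec buffer libraries. LUM, a stromal proteoglycan, was higher with LETS1 (2.34 with TGF-β and 2.17 in buffer) at 1.66 CPM or less in every group mean. The part of these marker differences in the results below was not tested. Of the leukocyte and endothelial markers CD14 had 25 to 54 counts per library, PECAM1 0 to 9 and KDR 0 to 4, while PTPRC, CD3E, CD68, CDH5 and VWF had at most 3. These are bulk samples, so fewer cells of a type and less RNA per cell cannot be told apart. Replicates are biological by their labels, with nothing on whether they were separate transductions, and p-values measure only the spread between these libraries.

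Per length of transcript, HMGA2 had the highest level of the 9 factors, with a mean over all libraries of 14.0 CPM per kb. TWIST2 (6.26), SNAI1 (6.20) and ZEB1 (5.61 CPM per kb) came next and lay close to each other. TWIST1 (1.59), ZEB2 (1.07) and SNAI2 (0.637 CPM per kb) were lower, OVOL2 stood at 0.118 and OVOL1 at 0.00693 CPM per kb. The order at the top depends on the length used. Divided by all annotated exons of the gene, SNAI1 led with 6.20 CPM per kb, TWIST2 had 4.68, HMGA2 4.07 and ZEB1 3.52. By that measure SNAI1 exceeded 63.3% of the tested genes and ZEB2 14.6%. The order also changed with the group: SNAI1 had 10.9 CPM per kb of transcript in LETS1 TGF-β, 4.30 in LETS1 buffer, 7.48 in Co.vec TGF-β and 2.13 in Co.vec buffer libraries, while TWIST2 had 5.40, 6.08, 6.63 and 6.93 CPM per kb in the same groups. SNAI1 thus ranked above TWIST2 in both TGF-β groups and below it in both buffer groups.

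**Figure D2:**
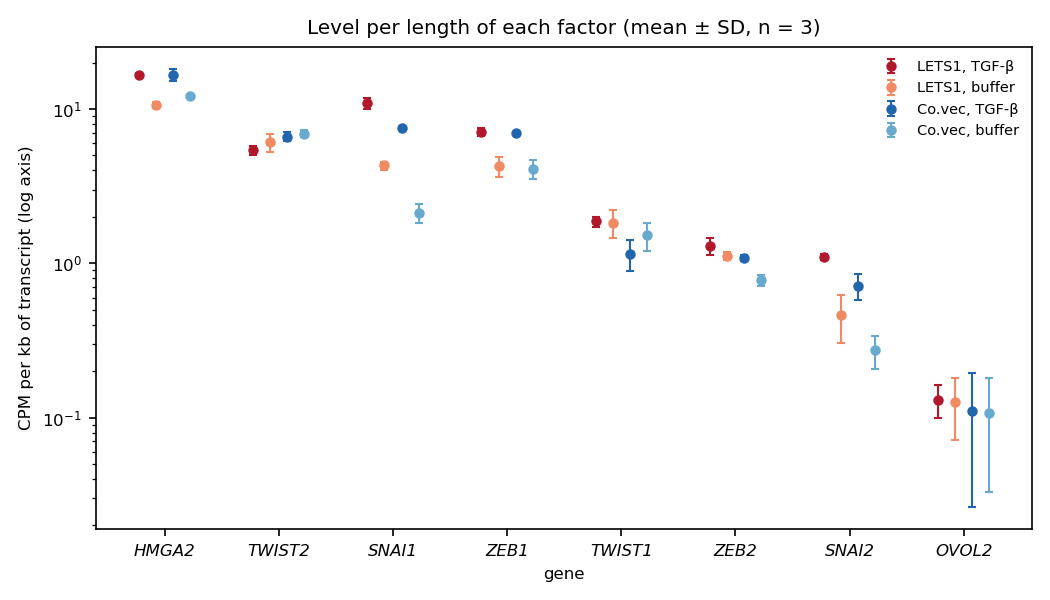
Mean level of 8 of the factors in CPM per kb of transcript (log axis) in each of the 4 groups, with bars of 1 SD over 3 libraries; OVOL1, with 0 counts in 1 group, is left out. SNAI1 spans the widest range, from 2.13 in Co.vec buffer to 10.9 in LETS1 TGF-β libraries, and TWIST2 stays between 5.40 and 6.93.

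The comparisons of TGF-β with buffer ask which of the factors the ligand moves within 4 h in each population. SNAI1, SNAI2, ZEB1 and HMGA2 rose with TGF-β in LETS1 cells and in Co.vec cells, and ZEB2 rose in Co.vec cells. In LETS1 cells 4 of the 7 tested factors were called higher and 0 lower at an adjusted p under 0.05, where 19.7% of all tested genes were called higher and 19.1% lower, 38.7% in all. Among Co.vec cells the counts were 5 higher and 0 lower, against 21.1% and 18.6% of all tested genes, 39.7% together. The median log2 fold change of the 7 was 0.64 in LETS1 cells and 0.48 in Co.vec cells, against -0.02 over all tested genes in both. TGF-β and buffer libraries did not overlap in CPM for 48.9% of all tested genes in LETS1 cells and 47.2% in Co.vec cells.

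SNAI1 (chr20:49982999-49988886 in GRCh38, ENSG00000124216) had the largest estimated fold change of the 7 in both populations. Its level was 20.2, 17.5 and 17.3 CPM in LETS1 TGF-β libraries, against 6.93, 7.75 and 7.08 CPM in LETS1 buffer libraries. With the empty vector it was 12.9, 12.5 and 12.4 CPM in Co.vec TGF-β libraries, against 3.11, 3.57 and 4.11 CPM in Co.vec buffer libraries. No library of any group overlapped another group. In LETS1 cells the fold change was 2.53 (95% interval 2.22 to 2.88; log2 1.34, edgeR quasi-likelihood adjusted p = 3.66e-15). In Co.vec cells it was 3.50 (2.99 to 4.11; log2 1.81, adjusted p = 1.38e-16). On the CPM scale the difference between TGF-β and buffer was 11.1 ± 0.959 CPM (SE) in LETS1 cells and 9.01 ± 0.322 CPM in Co.vec cells. By these estimates the LETS1 population had the smaller fold and the larger difference in CPM, starting from the higher buffer level. The contrast between the 2 folds was not called (edgeR adjusted p = 0.240), and that between the CPM differences was not tested.

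SNAI2 (ENSG00000019549) was the least abundant of the tested factors, with 11 to 54 counts per library. It stood at 2.77, 2.66 and 2.54 CPM in LETS1 TGF-β libraries, against 0.879, 1.57 and 0.928 CPM in LETS1 buffer libraries. The values were 1.95, 1.91 and 1.36 CPM in Co.vec TGF-β libraries, against 0.544, 0.843 and 0.601 CPM in Co.vec buffer libraries. The TGF-β libraries lay above the buffer libraries in both populations, and LETS1 buffer replicate 2, at 1.57 CPM, lay inside the range of Co.vec TGF-β. The fold change was 2.35 (95% interval 1.73 to 3.21; log2 1.23, edgeR adjusted p = 1.59e-05) in LETS1 cells and 2.60 (1.78 to 3.81; log2 1.38, adjusted p = 6.65e-05) in Co.vec cells.

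ZEB1 (chr10:31318495-31529814, ENSG00000148516) rose in both populations, with similar estimates. It stood at 37.7, 37.0 and 41.0 CPM in LETS1 TGF-β libraries, against 21.2, 21.2 and 27.1 CPM in LETS1 buffer libraries. It stood at 38.6, 37.6 and 36.9 CPM in Co.vec TGF-β libraries, against 25.5, 21.5 and 19.6 CPM in Co.vec buffer libraries. The 6 TGF-β libraries overlapped each other, as did the 6 buffer libraries, and the 2 sets were apart. The fold change was 1.67 (95% interval 1.48 to 1.87; log2 0.74, edgeR adjusted p = 1.33e-08) in LETS1 cells and 1.70 (1.51 to 1.91; log2 0.76, adjusted p = 8.02e-09) in Co.vec cells. The difference in level was 15.4 ± 2.31 CPM (SE) in LETS1 cells and 15.5 ± 1.81 CPM in Co.vec cells. The antisense gene ZEB1-AS1, which overlaps the ZEB1 start, had 55 to 89 counts per library and was not called in any of the 5 contrasts. Whether counting used strand is not given in the sources used here, so how reads of the overlap were assigned is not known. Fragments counted as ambiguous, and so given to no gene, made up 10.1% to 10.9% of all fragments per library.

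RefSeq lists several start sites for ZEB1, and a window from 250 to 61 bases before each of 7 was searched on both strands. The SMAD box CAGAC occurred in 2 of the windows, and the window below, before the fifth start, is shown because it holds 2 copies (capitals) and no ZEB1 exon (RefSeq, GRCh38.p14, chr10:31320304-31320493, plus strand). Of 35116 RefSeq promoter windows of this length, 31.2% held CAGAC. The E-box CACCTG was found at the third start only, with 2 copies (14.3% of windows), and the AP-1 motif TGANTCA at none (4.98%). The single windows of ZEB2 and TWIST2 in the table held none of the 3 motifs.
ZEB1, window before the fifth start: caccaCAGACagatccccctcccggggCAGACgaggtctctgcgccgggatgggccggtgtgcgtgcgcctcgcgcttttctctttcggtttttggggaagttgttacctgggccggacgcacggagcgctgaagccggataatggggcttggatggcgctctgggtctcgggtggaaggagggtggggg

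ZEB2 (chr2:144364364-144524583, ENSG00000169554) was called in Co.vec cells alone. Its level was 10.7, 13.4 and 13.0 CPM in LETS1 TGF-β libraries, against 9.96, 11.2 and 10.6 CPM in LETS1 buffer libraries. It was 10.7, 9.79 and 10.5 CPM in Co.vec TGF-β libraries, against 8.10, 6.99 and 7.11 CPM in Co.vec buffer libraries. The 2 groups of LETS1 cells overlapped and the 2 groups of Co.vec cells did not. ZEB2 rose with TGF-β in Co.vec cells, by a fold of 1.39 (95% interval 1.20 to 1.61; log2 0.48, edgeR adjusted p = 0.000268). In LETS1 cells the fold was 1.17 (1.02 to 1.33; log2 0.22) and did not pass (adjusted p = 0.0612). Without LETS1 TGF-β replicate 1, the lowest of its group, it passed (log2 0.32, adjusted p = 0.00971), as it did without LETS1 buffer replicate 2 (0.0478), without Co.vec TGF-β replicate 3 (0.0483) and when the 6 LETS1 libraries were fitted alone (0.0489).

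HMGA2 (chr12:65824131-65966295, ENSG00000149948) had the most counts of the 9, at 937 to 1601 per library. It stood at 73.0, 72.7 and 76.6 CPM in LETS1 TGF-β libraries, against 45.7, 49.6 and 47.0 CPM in LETS1 buffer libraries. In Co.vec TGF-β libraries it stood at 82.3, 72.2 and 70.0 CPM, against 54.9, 53.4 and 54.1 CPM in Co.vec buffer libraries. Both populations reached the same range with TGF-β, and the LETS1 buffer libraries were the lowest. The fold change was 1.56 (95% interval 1.44 to 1.69; log2 0.64, edgeR adjusted p = 2.02e-12) in LETS1 cells and 1.38 (1.28 to 1.50; log2 0.47, adjusted p = 5.00e-09) in Co.vec cells.

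The TWIST genes were not called with TGF-β in either population. TWIST1 (chr7:19020991-19117672, ENSG00000122691) stood at 3.18, 2.86 and 3.30 CPM in LETS1 TGF-β libraries, against 3.76, 2.60 and 2.78 CPM in LETS1 buffer libraries. In Co.vec TGF-β libraries it stood at 2.41, 1.60 and 1.76 CPM, against 2.08, 2.43 and 3.11 CPM in Co.vec buffer libraries. The ranges overlapped in both populations. The log2 fold change was 0.03 (adjusted p = 0.915) in LETS1 cells and -0.40 (95% interval of the fold 0.572 to 1.01, adjusted p = 0.117) in Co.vec cells, and without Co.vec TGF-β replicate 1 the second was called lower (log2 -0.58, adjusted p = 0.0448). TWIST2 (chr2:238848032-238910543, ENSG00000233608) stood at 8.15, 7.52 and 7.07 CPM in LETS1 TGF-β libraries, against 9.86, 7.90 and 7.86 CPM in LETS1 buffer libraries. In Co.vec TGF-β libraries it stood at 9.25, 10.00 and 8.68 CPM, against 9.24, 9.72 and 10.2 CPM in Co.vec buffer libraries. The groups with and without ligand overlapped in both populations. The fold was 0.887 (95% interval 0.763 to 1.03, adjusted p = 0.212) in LETS1 cells and 0.957 (0.830 to 1.10, adjusted p = 0.661) in Co.vec cells.

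**Figure D3:**
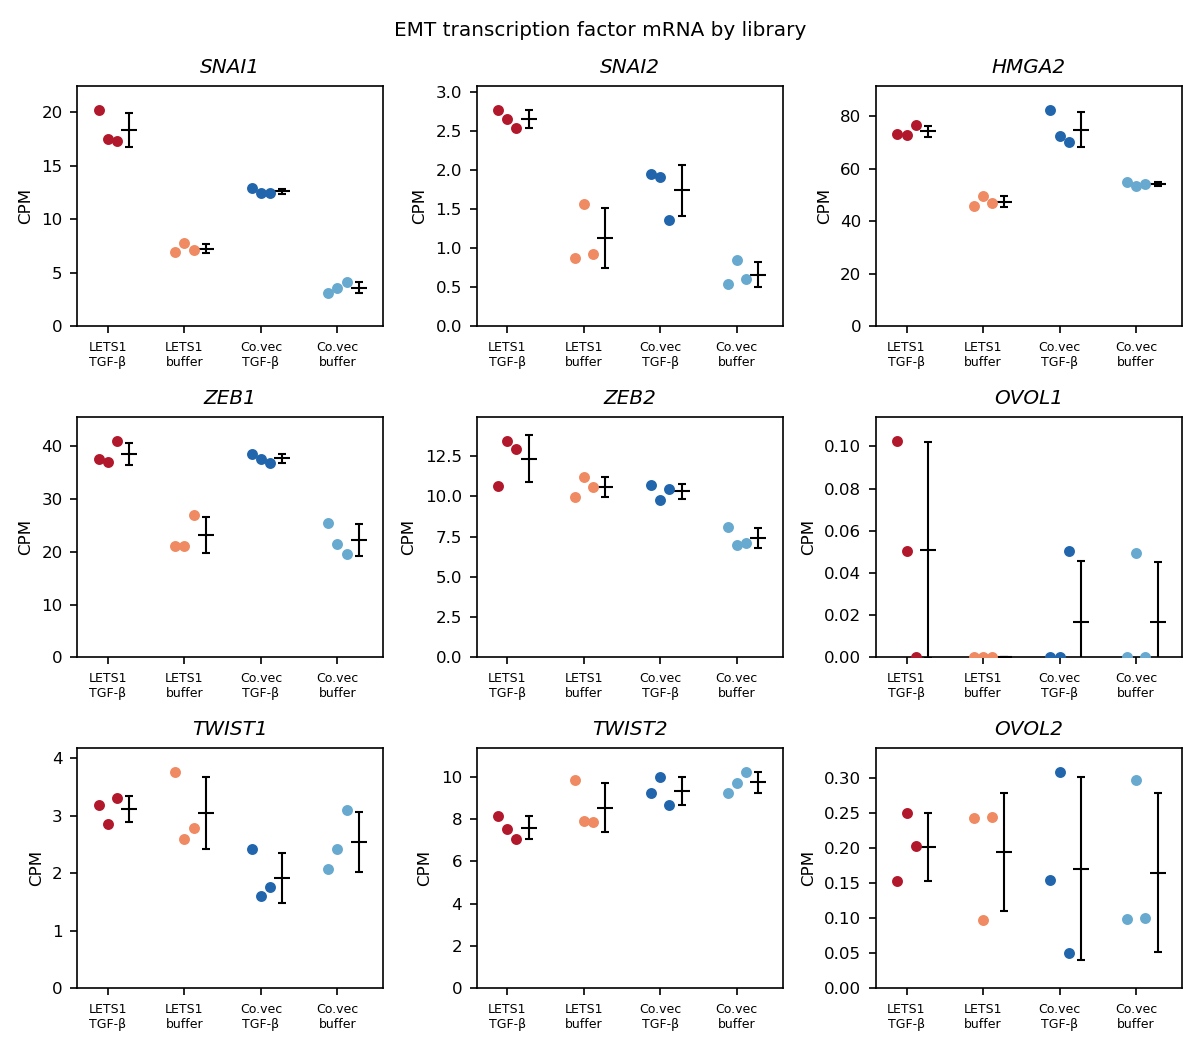
Level of each factor in CPM (linear axes from 0, a scale of its own for each gene) in the 12 libraries; points are libraries, and the bar beside them is the mean with 1 SD (n = 3). SNAI1 is separate in all 4 groups, ZEB1 and HMGA2 divide by ligand, and OVOL1 and OVOL2 stay at or under 0.103 and 0.309 CPM.

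The comparisons of LETS1 with Co.vec ask which of the factors differ between the populations at rest and under the ligand. SNAI1 was higher with LETS1 in both conditions, ZEB2 was higher in buffer, SNAI2 and TWIST1 were higher with TGF-β, and HMGA2 was lower in buffer. In buffer 2 of the 7 tested factors were called higher and 1 lower, where 8.57% of all tested genes were called higher and 6.56% lower, 15.1% in all. With TGF-β, 3 were called higher and 0 lower, against 7.58% and 6.5% of all tested genes, 14.1% together. The median log2 fold change of the 7 was 0.27 in buffer and 0.26 with TGF-β, against 0.01 and 0.00 over all tested genes. LETS1 and Co.vec libraries did not overlap in CPM for 31.1% of all tested genes in buffer and 28.8% with TGF-β. The comparison in buffer uses the same Co.vec buffer libraries as the TGF-β comparison in Co.vec cells, so the 2 are not independent.

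The SNAI1 fold between LETS1 and Co.vec was 2.02 in buffer (95% interval 1.69 to 2.40; log2 1.01, edgeR adjusted p = 4.16e-08). With TGF-β it was 1.45 (1.29 to 1.64; log2 0.54, adjusted p = 8.92e-06). In order, LETS1 TGF-β averaged 18.3 ± 1.60 CPM, Co.vec TGF-β 12.6 ± 0.253, LETS1 buffer 7.26 ± 0.437 and Co.vec buffer 3.60 ± 0.498 CPM (SD, n = 3 each), and no neighbours in that order overlapped. SNAI2 had a fold of similar size and a wider interval. It was 1.53 with TGF-β (95% interval 1.15 to 2.03; log2 0.61, adjusted p = 0.0368) and 1.69 in buffer (1.12 to 2.56; log2 0.76, adjusted p = 0.0799), so only the first passed. That call was lost when any of 5 libraries was left out: Co.vec TGF-β replicate 2 or 3, or LETS1 TGF-β replicate 1, 2 or 3 (adjusted p = 0.0560 to 0.177). DESeq2 did not make it either (adjusted p = 0.138).

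ZEB1 did not differ beyond its spread between LETS1 and Co.vec in either condition. The fold was 1.04 in buffer (95% interval 0.920 to 1.18, edgeR adjusted p = 0.730) and 1.02 with TGF-β (0.915 to 1.14, adjusted p = 0.842). These intervals leave room for differences of up to 1.18 and 1.14. ZEB2 was higher in LETS1 buffer libraries by a fold of 1.43 (1.24 to 1.65; log2 0.52, adjusted p = 0.000259). Its means were 12.4 ± 1.49 CPM in LETS1 TGF-β, 10.6 ± 0.638 in LETS1 buffer, 10.3 ± 0.471 in Co.vec TGF-β and 7.40 ± 0.612 CPM in Co.vec buffer libraries (SD, n = 3 each). Co.vec buffer was the only group apart, and each of the other 3 overlapped its neighbour in that order. With TGF-β the ZEB2 fold was 1.20 (1.05 to 1.37; log2 0.26, adjusted p = 0.0654) and passed without LETS1 TGF-β replicate 1 (log2 0.35, adjusted p = 0.0170).

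HMGA2 averaged 47.4 ± 1.97 CPM in LETS1 buffer and 54.1 ± 0.737 CPM in Co.vec buffer libraries (SD, n = 3 each), a fold of 0.877 (95% interval 0.809 to 0.951; log2 -0.19, edgeR adjusted p = 0.0193). It was the only factor called lower with LETS1. The call was lost without Co.vec buffer replicate 3 (adjusted p = 0.0503), LETS1 buffer replicate 1 (0.105) or LETS1 buffer replicate 3 (0.0695). With TGF-β it averaged 74.1 ± 2.17 CPM in LETS1 and 74.8 ± 6.52 CPM in Co.vec libraries, a fold of 0.990 (0.918 to 1.07, adjusted p = 0.908).

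TWIST1 averaged 3.11 ± 0.229 CPM in LETS1 TGF-β and 1.92 ± 0.433 CPM in Co.vec TGF-β libraries (SD, n = 3 each), a fold of 1.62 (95% interval 1.23 to 2.13; log2 0.69, edgeR adjusted p = 0.0114). These 2 groups did not overlap, as for 28.8% of all tested genes in this comparison. The counts behind them were only 57 to 65 in LETS1 TGF-β and 31 to 47 in Co.vec TGF-β libraries. The call was lost without Co.vec TGF-β replicate 2, the lowest library (adjusted p = 0.0816). In buffer the TWIST1 fold was 1.20 (0.930 to 1.55, adjusted p = 0.384). TWIST2 was the factor whose estimates ran the other way in both conditions without passing. With TGF-β its LETS1 libraries all lay below its Co.vec libraries. Its fold was 0.879 in buffer (0.761 to 1.01, adjusted p = 0.246) and 0.815 with TGF-β (0.702 to 0.946, adjusted p = 0.0568), and the second passed without Co.vec TGF-β replicate 3 (0.0403), LETS1 TGF-β replicate 1 (0.04997) or LETS1 buffer replicate 1 (0.0475).

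**Figure D4:**
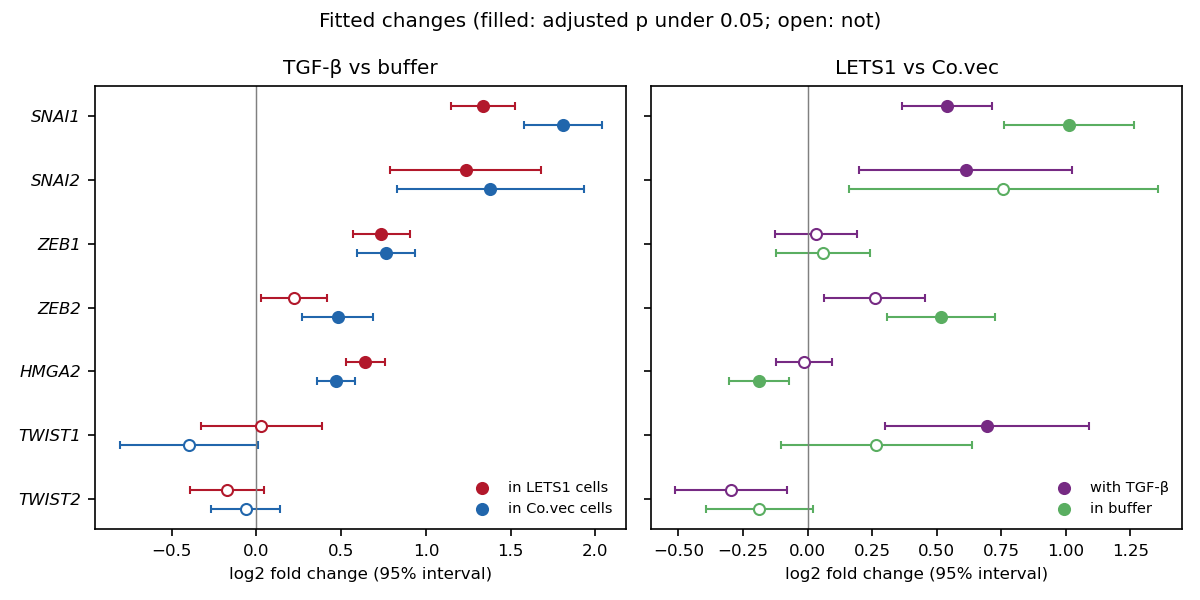
Fitted log2 fold change of the 7 tested factors with 95% intervals, for TGF-β against buffer (left, in LETS1 cells in red and in Co.vec cells in blue) and for LETS1 against Co.vec (right, with TGF-β in purple and in buffer in green). Filled points passed an adjusted p of 0.05; the intervals of ZEB1 on the right are centred near 0 (0.03 and 0.06), and SNAI1 is filled in all 4.

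The interaction asks whether the ligand response itself differed between LETS1 and Co.vec cells, and none of the 7 tested factors was called in it with edgeR, where 0.679% of all tested genes were called, 0.0803% higher and 0.599% lower. The unadjusted p was under 0.05 for SNAI1 and HMGA2, and DESeq2 called none of the 6 for which it gave an adjusted p (SNAI2 had none). For SNAI1 the fold response in LETS1 cells was 0.722 times that in Co.vec cells (95% interval 0.582 to 0.894; log2 -0.47, unadjusted p = 0.00379, adjusted p = 0.240). HMGA2 had the opposite sign, at 1.13 times (1.01 to 1.26; log2 0.18, unadjusted p = 0.0323, adjusted p = 0.566). The other 5 had log2 differences of -0.15 for SNAI2, -0.03 for ZEB1, -0.26 for ZEB2, 0.43 for TWIST1 and -0.11 for TWIST2, with adjusted p of 0.977, 0.989, 0.714, 0.786 and 0.938. The intervals remain wide for the rare factors, from 0.548 to 1.49 for SNAI2 and from 0.923 to 1.96 for TWIST1.

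OVOL1 (chr11:65787022-65797219, ENSG00000172818) and OVOL2 (chr20:17956979-18059188, ENSG00000125850) were barely detected in these cells. OVOL1 had 3 counts over the 3 LETS1 TGF-β libraries, 0 over LETS1 buffer, 1 over Co.vec TGF-β and 1 over Co.vec buffer. Taken as the limit of 3 counts over the group, the 0 allows a level of up to 0.0497 CPM. OVOL2 had 12 counts in LETS1 TGF-β (exact Poisson 95% interval 6.20 to 21.0), 12 in LETS1 buffer, 10 in Co.vec TGF-β and 10 in Co.vec buffer libraries (4.80 to 18.4). The intervals and the limit cover counting error only. The OVOL2 intervals of the groups overlapped, and no test was made for either gene. The host gene of miR-200c and miR-141, MIR200CHG, was likewise near 0, at 0 to 2 counts per library, and MIR205HG had 0. HMGA2-AS1 had 0 to 5 counts, RPSAP52, antisense to the start of HMGA2, 1 to 5, and ZEB2-AS1 0. SNAI3-AS1, antisense to SNAI3 by its name, was lower with TGF-β in LETS1 cells (log2 -0.82, adjusted p = 2.09e-05) and in Co.vec cells (-0.55, adjusted p = 0.00333).

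Across the 12 libraries the genes most like each called factor in log2 CPM were taken from 13820 genes with a mean of at least 1 CPM, as a description. SNAI1 was closest to ZYX (Pearson r 0.993), TAGLN (0.992) and KRT7 (0.992), which encode the focal adhesion protein zyxin, transgelin and a keratin. SNAI2 was closest to FSCN1 (0.970), DBN1 (0.967) and CAVIN1 (0.962), which encode fascin, drebrin and a caveolar coat protein. ZEB1 was closest to PRRC1 (0.994), QTRT2 (0.986) and SPEN (0.985). ZEB2 was closest to COL4A4 (0.959), GBA2 (0.954) and TRAM1 (0.952), and HMGA2 to BPGM (0.987), MYEOV (0.985) and TMEM156 (0.984). TWIST1 had lower maxima, with EIF6 at 0.909, TLE6 at 0.891 and PSMB8 at 0.887. Among the factors themselves the highest r was 0.948 between SNAI1 and SNAI2, followed by 0.905 between ZEB1 and HMGA2. TWIST2 had a negative r with each other tested factor, from -0.257 with HMGA2 to -0.797 with ZEB2. For TWIST1 r ran from -0.287 with TWIST2 to 0.177 with ZEB2. The points share libraries and the 4 group means, so each r also carries the differences between groups.

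Other transcription factors associated with EMT were more often higher than lower with TGF-β. Of 25 listed, 20 were tested. With TGF-β, 9 rose and 2 fell in LETS1 cells, and 8 rose and 4 fell in Co.vec cells, where 19.7% of all tested genes rose and 19.1% fell in LETS1 cells and 21.1% and 18.6% in Co.vec cells. The 4 of 20 that fell in Co.vec cells are near the share of all genes. PRRX2, a paired-type homeobox factor, had the largest change, to 19.3 ± 2.57 CPM in LETS1 TGF-β against 1.83 ± 0.123 CPM in LETS1 buffer libraries (log2 3.40, SE 0.127, n = 3 each). It stood at 19.5 ± 0.879 CPM in Co.vec TGF-β against 1.61 ± 0.197 CPM in Co.vec buffer libraries (log2 3.60, SE 0.131). SOX4, an HMG-box factor, rose by log2 1.01 in LETS1 cells and 1.20 in Co.vec cells. FOXC2, a forkhead factor, rose with TGF-β (log2 1.18 in LETS1 cells and 1.63 in Co.vec cells) and was also higher with LETS1 (1.13 with TGF-β and 1.58 in buffer), at 3.62 ± 1.04 CPM in LETS1 TGF-β, 1.60 ± 0.207 in LETS1 buffer, 1.65 ± 0.362 in Co.vec TGF-β and 0.531 ± 0.304 CPM in Co.vec buffer libraries. Between LETS1 and Co.vec, 3 were higher and 3 lower with TGF-β, and 6 were higher and 4 lower in buffer, where 7.58% and 8.57% of all tested genes were higher and 6.5% and 6.56% lower. RUNX2, a runt-domain factor, was higher by log2 1.07 in both, FOXQ1 was lower in both (-0.58 with TGF-β and -0.68 in buffer), and FOSL1, an AP-1 subunit, was higher in buffer (0.94) and not called with TGF-β (0.20, adjusted p = 0.0581). FOSL1 was the 1 gene of this list called in the interaction (log2 -0.75, adjusted p = 2.72e-05).

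Factors that hold the epithelial state were more often lower than higher in each of the 4 comparisons. Of 24 listed, 18 were tested. With TGF-β, 9 fell and 4 rose in LETS1 cells, and 9 fell and 5 rose in Co.vec cells. Of all tested genes 19.1% and 18.6% fell and 19.7% and 21.1% rose. The 4 of 18 that rose in LETS1 cells are near the share of all genes. Between LETS1 and Co.vec, 6 were lower and 1 higher with TGF-β, and 8 were lower and 0 higher in buffer. Of all tested genes 6.5% and 6.56% were lower and 7.58% and 8.57% higher. EHF, an ETS factor of epithelia, averaged 8.10 ± 0.137 CPM in LETS1 TGF-β, 23.9 ± 1.15 in LETS1 buffer, 18.3 ± 0.607 in Co.vec TGF-β and 52.5 ± 2.01 CPM in Co.vec buffer libraries (SD, n = 3 each). It was called lower in all 4 comparisons, with log2 fold changes from -1.14 to -1.56. SPDEF, another ETS factor, was lower with LETS1 by log2 -0.68 with TGF-β and -1.12 in buffer. ELF3 fell with TGF-β in LETS1 cells (log2 -1.87) and in Co.vec cells (-1.22) and was lower with LETS1 under TGF-β (-0.72), while in buffer it did not pass (-0.07, adjusted p = 0.399). GRHL3, a grainyhead factor, fell by log2 -2.12 with TGF-β in LETS1 cells and -2.00 in Co.vec cells, at 2.27 CPM or less in every group. FOXA3 fell in LETS1 cells (-1.30) and in Co.vec cells (-1.86) and was lower with LETS1 in buffer (-1.03). In the interaction ELF3 was called lower (log2 -0.66, adjusted p = 1.12e-07) and SPDEF higher (0.44, adjusted p = 0.00787).

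Among partners and turnover factors of the 9, such as ID proteins, SMADs, ubiquitin ligases and corepressors, 48 of 49 were tested and changes went both ways. With TGF-β, 11 rose and 11 fell in LETS1 cells, which is near the 19.7% and 19.1% of all tested genes, and 15 rose and 11 fell in Co.vec cells, against 21.1% and 18.6%. ID2, an inhibitor of helix-loop-helix dimers, fell to 11.9 ± 1.18 CPM in LETS1 TGF-β against 33.0 ± 1.64 CPM in LETS1 buffer libraries (log2 -1.47), and stood at 11.99 ± 1.63 CPM in Co.vec TGF-β against 26.2 ± 2.18 CPM in Co.vec buffer libraries (log2 -1.12). WTIP, an Ajuba-family LIM protein, rose by log2 0.92 in LETS1 cells and 0.84 in Co.vec cells. LIN28B, which blocks let-7 maturation, fell in LETS1 cells (log2 -0.81, adjusted p = 5.71e-07) and in Co.vec cells (-0.76, adjusted p = 5.97e-07). Between LETS1 and Co.vec, 3 were higher and 0 lower with TGF-β, and 6 were higher and 2 lower in buffer. Of all tested genes 7.58% and 8.57% were higher and 6.5% and 6.56% lower. The 3 of 48 that were higher with TGF-β are near the share of all genes. In buffer ID1 (log2 0.49), ID2 (0.34) and ID3 (0.57) were higher. With TGF-β the 3 were LOXL2, a lysyl oxidase that binds SNAI1 (log2 0.24), WTIP (0.26) and the arginine methyltransferase PRMT5 (0.19). ID1 also rose with TGF-β in LETS1 cells (log2 0.28) and in Co.vec cells (0.81), and ID3 fell in LETS1 cells (-0.24) and rose in Co.vec cells (0.19). The interaction called AJUBA (log2 -0.35, adjusted p = 0.0186), ID1 (-0.53, adjusted p = 0.000397) and ID3 (-0.43, adjusted p = 0.00358).

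Epithelial genes known as targets of these repressors changed in both directions with TGF-β at 4 h. Of 45 listed, 38 were tested. With TGF-β, 13 rose and 11 fell in LETS1 cells, and 14 rose and 7 fell in Co.vec cells, with median log2 fold changes of 0.02 and -0.06. Of all tested genes 19.7% rose and 19.1% fell in LETS1 cells, and 21.1% rose and 18.6% fell in Co.vec cells, the last close to the share of the list that fell there. CDH1, the E-cadherin gene, fell to 74.4 ± 2.73 CPM in LETS1 TGF-β against 97.6 ± 0.943 CPM in LETS1 buffer libraries (log2 -0.39, SE 0.0501, adjusted p = 2.80e-08). It fell to 71.3 ± 4.39 CPM in Co.vec TGF-β against 95.9 ± 3.72 CPM in Co.vec buffer libraries (log2 -0.43, SE 0.0504, adjusted p = 4.17e-09). CLDN4, a claudin, rose by log2 2.57 in LETS1 cells and 2.36 in Co.vec cells, and VDR, the vitamin D receptor, by 1.88 and 1.73. TJP3, a junction scaffold, fell in LETS1 cells (log2 -1.22) and in Co.vec cells (-1.60). Between LETS1 and Co.vec, 14 were lower and 4 higher with TGF-β, and 14 were lower and 3 higher in buffer, with medians of -0.09 and -0.13. Of all tested genes 6.5% and 6.56% were lower and 7.58% and 8.57% higher. The 3 of 38 that were higher in buffer are near the share of all genes. ERBB3, a receptor kinase, was lower by log2 -1.28 with TGF-β and -1.02 in buffer, and KRT19, a keratin, by -0.68 and -0.79. CEACAM1 was lower by -0.64 with TGF-β and -0.75 in buffer, and TJP3 by -0.55 and -0.93. Among the genes called higher were LAMA3 (log2 0.40 with TGF-β and 0.50 in buffer) and, in buffer alone, KRT7 (0.25). CDH1 did not pass between LETS1 and Co.vec, with log2 0.06 with TGF-β (adjusted p = 0.480) and 0.03 in buffer (adjusted p = 0.799).

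Mesenchymal genes associated with EMT, listed as targets of the factors, were mostly higher in all 4 comparisons. Of 36 listed, 30 were tested. With TGF-β, 21 rose and 2 fell in LETS1 cells, and 19 rose and 1 fell in Co.vec cells. The median log2 fold changes were 0.60 and 0.51. Of all tested genes 19.7% and 21.1% rose and 19.1% and 18.6% fell. COL1A1, a collagen chain, rose by log2 2.83 in LETS1 cells and 3.24 in Co.vec cells, and CCN2 by 1.99 and 2.06. Between LETS1 and Co.vec, 18 were higher and 3 lower with TGF-β, and 17 were higher and 1 lower in buffer. Of all tested genes 7.58% and 8.57% were higher and 6.5% and 6.56% lower. CDH11, a mesenchymal cadherin, stood at 9.81 ± 0.477 CPM in LETS1 TGF-β against 0.221 ± 0.0795 CPM in Co.vec TGF-β libraries (log2 5.43, SE 0.226, n = 3 each). SPARC, a matrix glycoprotein, was higher by log2 2.58 with TGF-β and 1.78 in buffer, and ITGB3, an integrin chain, by 0.83 and 1.03. MMP14, a membrane metalloproteinase, was lower with TGF-β (-0.85) and not called in buffer (-0.17, adjusted p = 0.678). S100A4 was lower with LETS1 in both conditions. With TGF-β it averaged 369 CPM in LETS1 and 583 CPM in Co.vec libraries (log2 -0.66). In buffer it averaged 360 CPM in LETS1 and 589 CPM in Co.vec libraries (log2 -0.71). COL1A1 was also called in the interaction (log2 -0.40, adjusted p = 0.0206). These sets were chosen with earlier results of these data known, and their counts describe the lists without a test of the list. Whether the changes of the epithelial and mesenchymal genes came through the factors was not tested.

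**Figure D5:**
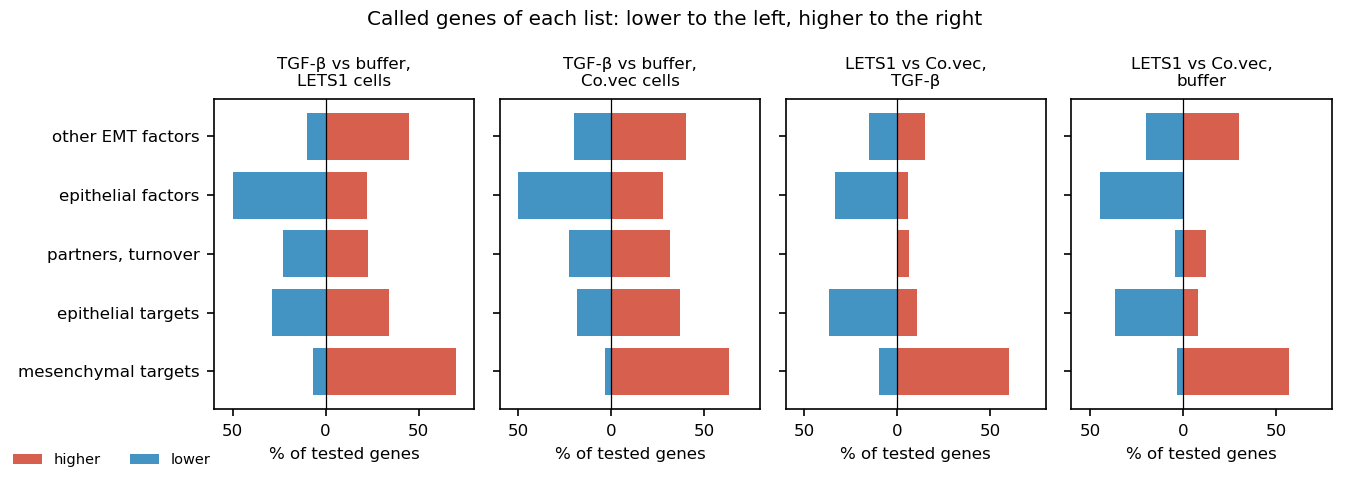
Share of the tested genes of 5 lists called higher (red, to the right) or lower (blue, to the left) at an adjusted p under 0.05, in percent, for the 4 comparisons. Mesenchymal targets lean higher in all 4 (21, 19, 18 and 17 of 30 higher from left to right), epithelial factors lean lower (9, 9, 6 and 8 of 18), and epithelial targets lean lower between LETS1 and Co.vec (14 of 38 in both).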

How the data were processed

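The authors deposited raw counts of fragments per gene for 12 libraries. Per the submitters' processing notes, FastQC, cutadapt 2.10, STAR 2.7.5a and HTSeq 0.12.4 were used with GRCh38, and neither the annotation release nor the strand setting is given in the sources used here. Rows naming no gene (18.9% to 20.0% of fragments) were left out. Genes passing filterByExpr were fitted with edgeR 4.0.16 (R 4.3.3; TMM, robust quasi-likelihood, 4 group means over all 12 libraries), tested on simulated data first, and p-values were adjusted by Benjamini-Hochberg over 16192 genes. In the simulated data the interaction called 55 of 100 true changes of log2 0.5 and 73 of 100 of log2 1. The other 4 comparisons called 69 to 76 and 80 to 91 of 100. Intervals are at 95%. The members and lists were chosen with earlier results of these data known. From each list the 3 called genes with the largest change and at least 1 CPM in the higher group were named in each contrast. CDH1 was named for its role. S100A4, KRT7 and LAMA3 were named because they went against most called genes of their list between LETS1 and Co.vec. Some genes that the rule would name are not reported here, though the counts include them. Replicates differed beyond counting error (chi-square per degree of freedom 2.16 to 5.24, 12 pairs). Transcripts and coordinates came from GENCODE release 29. Alternatives were RLE, no filter, a replicate block, DESeq2 1.42.0, each comparison's libraries alone, and leaving out each library.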

Additional observations from a re-analysis of the deposited data

How the results depend on the processing

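With 3 libraries a group, small changes of rare factors rest on few counts, and calls near the threshold moved when a library was left out. The cause was not tested. The rises of SNAI1, SNAI2, ZEB1 and HMGA2 with TGF-β in both populations, of ZEB2 with TGF-β in Co.vec cells and with LETS1 in buffer, and of SNAI1 with LETS1 in both conditions passed under all 17 alternatives. Over left-out libraries the factors called lower with LETS1 in buffer numbered 0 to 1. With TGF-β, LETS1 against Co.vec had 1 to 3 factors higher and 0 to 1 lower, and Co.vec cells had 0 to 1 lower. Genes called higher in the interaction numbered 28 with no filter on low counts and 8 to 21 over left-out libraries, against 13. Estimates that changed sign were uncalled both ways. Over left-out libraries their log2 ranges were, between LETS1 and Co.vec, -0.0674 to 0.171 for ZEB1 in buffer, -0.0134 to 0.0611 for ZEB1 with TGF-β and -0.0606 to 0.0550 for HMGA2 with TGF-β, and -0.0646 to 0.209 for TWIST1 with TGF-β in LETS1 cells. In the interaction they were -0.14 to 0.10 for ZEB1, -0.167 to 0.00670 for TWIST2 and -0.36 to 0.17 for SNAI2. Replicate numbers did not pair libraries (0 of 18 correlations of residuals over 0.1, and 3 of 12 libraries closest to their own number). With a replicate block the factors called higher and lower were 4 and 0 for TGF-β in LETS1 cells, 5 and 0 in Co.vec cells, 3 and 0 for LETS1 with TGF-β, 2 and 1 in buffer, and 0 and 0 in the interaction. It changed no call of the 7.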
